A study of Mus musculus with 14 samples.

Results

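The 10 genes described here encode chains of MHC class I molecules and proteins that prepare or load their peptides: the heavy chains H2-K1, H2-D1, H2-Q4, H2-Q6, H2-Q7, H2-Q8 and H2-M3, the light chain B2m, the peptide transporter subunit Tap1 and the proteasome subunit Psmb8. They were taken by gene symbol, and each had a probe set among the 21212 on the array. They were picked with the knockout differences of these arrays known, so those differences are given as a description and not as a test. The arrays measured total RNA from whole lungs of C57BL/6J mice at postnatal day 6, dissected from the offspring of heterozygous intercrosses. There were 4 Atxn1L -/- lungs (Atxn1L knockouts) with 4 wild-type (WT) lungs, and 3 Atxn1 -/- lungs (Atxn1 knockouts) with 3 WT lungs of their own. No treatment was recorded, and no group carried a transgene or Cre in the labels. The proteins missing here, ataxin-1 and its relative ataxin-1-like, work as partners of Capicua, a repressor of transcription.

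An MHC class I molecule is a heavy chain paired with beta-2 microglobulin and a short peptide, which it shows at the cell surface to cytotoxic T cells and natural killer cells. The peptides are cut by proteasomes, in which interferon-induced subunits such as Psmb8 can replace the constitutive ones, and are pumped into the endoplasmic reticulum by the transporter made of Tap1 and Tap2. Interferons raise the transcription of most of these genes, and nearly all cells with a nucleus carry class I molecules, endothelium and leukocytes at high levels. H2-K1 and H2-D1 are the classical heavy chains of C57BL/6 mice, the H2-Q chains and H2-M3 are nonclassical ones, and H2-Q7 encodes the Qa-2 antigen. The heavy chains resemble each other in sequence, and how the probes of these probe sets divide among them was not analysed here, so each H2 value below may hold signal of its relatives.

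Promoters of most of these heavy chains also resemble each other, though promoters are not what the probes read. RefSeq promoter windows (GRCm38.p6, 250 bases before to 50 after the annotated start) were matched for 9 of the 10 genes, all but H2-Q8. The stretches below, all on the strand of the gene, surround a match to GAANNGAAA, a short form of the site bound by interferon regulatory factors, which appears here in its reverse form TTTCNNTTC. They are shown because these 6 heavy chains share it, 4 of them downstream of GGGATTCCC, a form of the kappa B site bound by NF-kappa B. Capitals mark matches to those letters, and in B2m to AAANNGAAA, part of the interferon-stimulated response element.
H2-K1 (chr17:34000418-34000477, minus strand): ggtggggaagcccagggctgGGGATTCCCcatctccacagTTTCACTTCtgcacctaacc
H2-D1 (chr17:35262904-35262963, plus strand): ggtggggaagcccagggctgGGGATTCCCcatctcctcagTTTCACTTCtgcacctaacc
H2-Q4 (chr17:35379424-35379483, plus strand): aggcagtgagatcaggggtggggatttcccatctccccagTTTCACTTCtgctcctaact
H2-Q6 (chr17:35424658-35424717, plus strand): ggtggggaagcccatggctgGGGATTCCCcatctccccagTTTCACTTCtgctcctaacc
H2-Q7 (chr17:35439002-35439061, plus strand): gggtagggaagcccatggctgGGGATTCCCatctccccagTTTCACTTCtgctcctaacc
H2-M3 (chr17:37270093-37270152, plus strand): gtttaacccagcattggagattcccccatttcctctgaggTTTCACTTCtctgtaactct
B2m (chr2:122147528-122147587, plus strand): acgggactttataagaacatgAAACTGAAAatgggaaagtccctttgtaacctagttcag

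Searched on both strands, GAANNGAAA was found in 6 of the 9 windows, those of H2-K1, H2-D1, H2-Q4, H2-Q6, H2-Q7 and H2-M3, and in 7.52% of all 32851 promoter windows. GGGATTCCC was found in 4 of the 9, H2-K1, H2-D1, H2-Q6 and H2-Q7, and in 0.353% of all windows. AAANNGAAA was found in B2m alone of the 9 and in 10.6% of all windows, and at no place did these matches overlap each other. TGACG, the core of the element bound by CREB and its relatives, was found in 7 of the 9 and in 20.8% of all windows, and ATTGG, the inverted CCAAT box, in 8 of the 9 and in 37.4%. None of these 5 motifs was found in the Psmb8 window, and the Tap1 window shared 275 bases with that of Psmb9, which lies on the opposite strand with its start 225 bases away. These matches describe letters and say nothing on binding in these lungs.

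Aligned from end to end over 300 bases, the windows of H2-K1, H2-D1, H2-Q4, H2-Q6 and H2-Q7 had between 67.0% and 84.7% identical bases in their 10 pairs. H2-Q6 and H2-Q7 were the closest pair, with 254 identical bases. Pairs of these 5 with H2-M3 had 55.0% to 59.0%. The 18 pairs of Tap1, B2m and Psmb8 with these 5 and with each other had 50% to 57.3%, which is what gapped alignment gave outside the heavy chains. H2-K1 has several annotated starts, of which the first listed was used.

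**Figure D1:**
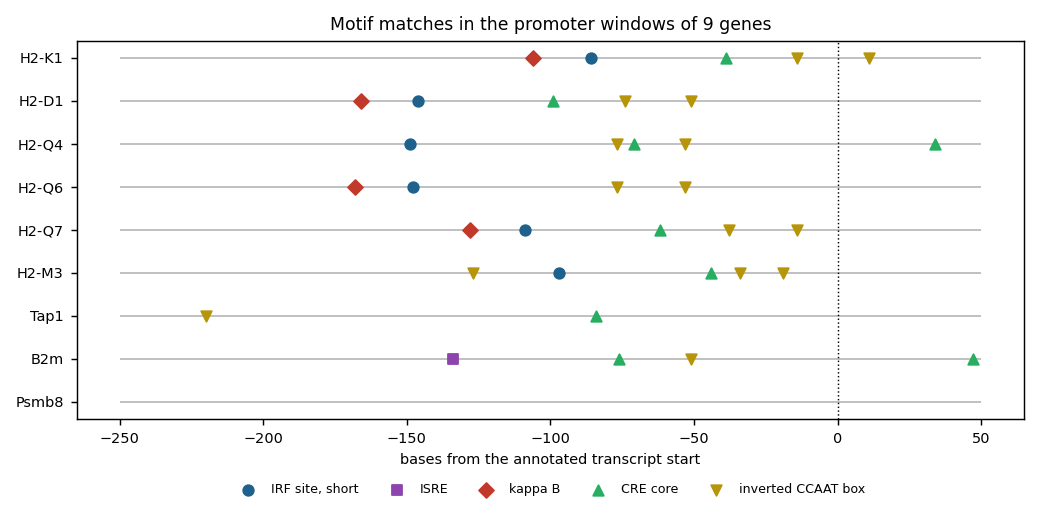
Motif matches in the promoter windows of 9 genes, by distance in bases from the annotated transcript start (dotted line); each grey line is a window of 300 bases, each marker the centre of a match on either strand. The 6 heavy chains each hold the short IRF site, 4 of them with the kappa B letters upstream, and the Psmb8 line is empty.

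The positions of 9 of the genes, all but H2-Q8, were used, and 8 of these lie on chromosome 17 in GRCm38.p6. Tap1 (34187556 to 34197225) and Psmb8 (34198195 to 34201454) are neighbours in the class II part of the MHC, H2-K1 (33996012 to 34000619) lies before them, and H2-D1 (35263094 to 35267497), H2-Q4 (35379617 to 35384674), H2-Q6 (35424850 to 35430055), H2-Q7 (35439140 to 35443773) and H2-M3 (37270234 to 37274485) lie after. B2m lies on chromosome 2 (122147687 to 122153082), Atxn1l on chromosome 8 and Atxn1 on chromosome 13, so none of these 9 lies on the chromosome of a deleted gene. The probe set of H2-Q4 carries the Entrez number 436493, which the platform's gene table assigns to H2-Q4 (15015); the other 9 carry the number of their own gene.

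The RMA levels were normalized apart for the 2 sets of arrays, with array medians of 8.44 to 8.53 for the Atxn1L arrays and 9.21 to 9.24 for the Atxn1 arrays, so levels are compared only within a set. Atxn1l fell to 6.86 ± 0.16 in its knockouts, against 9.45 ± 0.12 in their WT lungs (log2 level, SD, n = 4 each; limma adjusted p = 1.18e-06), while the Atxn1 probe set had 11.02 ± 0.02 in the Atxn1 knockouts and 11.01 ± 0.11 in their WT lungs (SD, n = 3 each). Where that probe set lies relative to the deletion was not analysed here, so it does not check the genotype. Of 8 lung markers, Sftpc averaged 13.90 in the Atxn1L knockouts and 13.95 in their WT lungs, and 14.30 in the Atxn1 knockouts and 14.33 in theirs. The labels give neither litter nor sex, and Xist, the RNA of the inactive X chromosome, was low on 1 Atxn1L knockout array and 2 of its WT arrays, and on 1 Atxn1 knockout array and 2 of its WT arrays.

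In the Atxn1L knockouts the classical heavy chains averaged higher than in their WT lungs, with the groups overlapping. H2-K1 had log2 levels of 11.55, 11.08, 11.63 and 12.20 in the 4 Atxn1L knockouts, against 10.74, 11.34, 10.58 and 11.01 in their WT lungs. Replicate 2 of the knockouts was lower than replicate 2 of the WT lungs, and the other 3 knockouts were above all 4 WT lungs. The difference was 0.70 (SE 0.22), a 1.62-fold higher level in the knockouts. H2-D1 had 12.13, 11.87, 12.15 and 12.57 in the Atxn1L knockouts, against 11.61, 11.97, 11.60 and 11.79 in their WT lungs, with the same 3 knockouts above all WT lungs and a difference of 0.44 (SE 0.14).

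H2-Q7, H2-Q6 and H2-Q8, all nonclassical, had the largest differences of the 10 and the widest spread between arrays in this set. H2-Q7 had 9.80, 8.56, 10.38 and 11.30 in the Atxn1L knockouts, against 7.94, 9.44, 7.91 and 9.08 in their WT lungs. Its averages, 10.01 ± 1.14 in the knockouts and 8.59 ± 0.79 in the WT lungs (SD, n = 4 each), differed by 1.42 (SE 0.54), or 2.68-fold, and knockout replicate 2 lay below WT replicates 2 and 4. Over all probe sets of the array only 0.0471% had a larger spread within groups in this set than H2-Q7.

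H2-Q6 had 10.21, 9.83, 10.81 and 11.68 in the Atxn1L knockouts, against 9.24, 10.14, 9.17 and 9.77 in their WT lungs, a difference of 1.05 (SE 0.36). H2-Q8 and H2-Q4 followed, with differences of 0.84 (SE 0.30) and 0.68 (SE 0.24) and ranges of 9.04 to 10.69 and 9.26 to 10.61 in the knockouts, against 8.63 to 9.25 and 8.90 to 9.45 in the WT lungs. All 4 H2-Q chains had the pattern of H2-K1, with knockout replicate 2 inside the WT range and the other 3 knockouts above it. H2-M3, which presents formylated peptides of bacteria and mitochondria, stood apart from them: it had 8.31, 8.19, 8.24 and 8.53 in the Atxn1L knockouts, against 8.05, 8.34, 8.02 and 8.21 in their WT lungs, and 1 knockout above all WT lungs (difference 0.16, SE 0.09).

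Of the genes that are no heavy chain, Tap1 was the one whose Atxn1L knockouts kept closest together. Tap1 had 9.97, 10.02, 9.95 and 10.28 in the Atxn1L knockouts, against 9.15, 9.26, 9.09 and 9.97 in their WT lungs. WT replicate 4 reached the knockouts and the other 3 WT lungs lay well below, so the averages differed by 0.69 (SE 0.17), a 1.61-fold higher level in the knockouts. Without WT replicate 4 the difference was 0.89 (limma adjusted p = 0.0118), and Tap1 was then the only gene of the 10 under the threshold, on arrays that had helped to choose it; under the other alternatives its adjusted p was 0.177 to 0.606. Psmb8 had 9.16, 8.94, 8.98 and 9.36 in the Atxn1L knockouts, against 8.44, 8.79, 8.59 and 8.998 in their WT lungs, where WT replicate 4 was again the highest (difference 0.41, SE 0.13). B2m had 13.14, 13.06, 13.20 and 13.47 in the Atxn1L knockouts, against 13.02, 13.11, 13.03 and 13.21 in their WT lungs, with a single knockout above all WT lungs and a difference of 0.13 (SE 0.09).

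**Figure D2:**
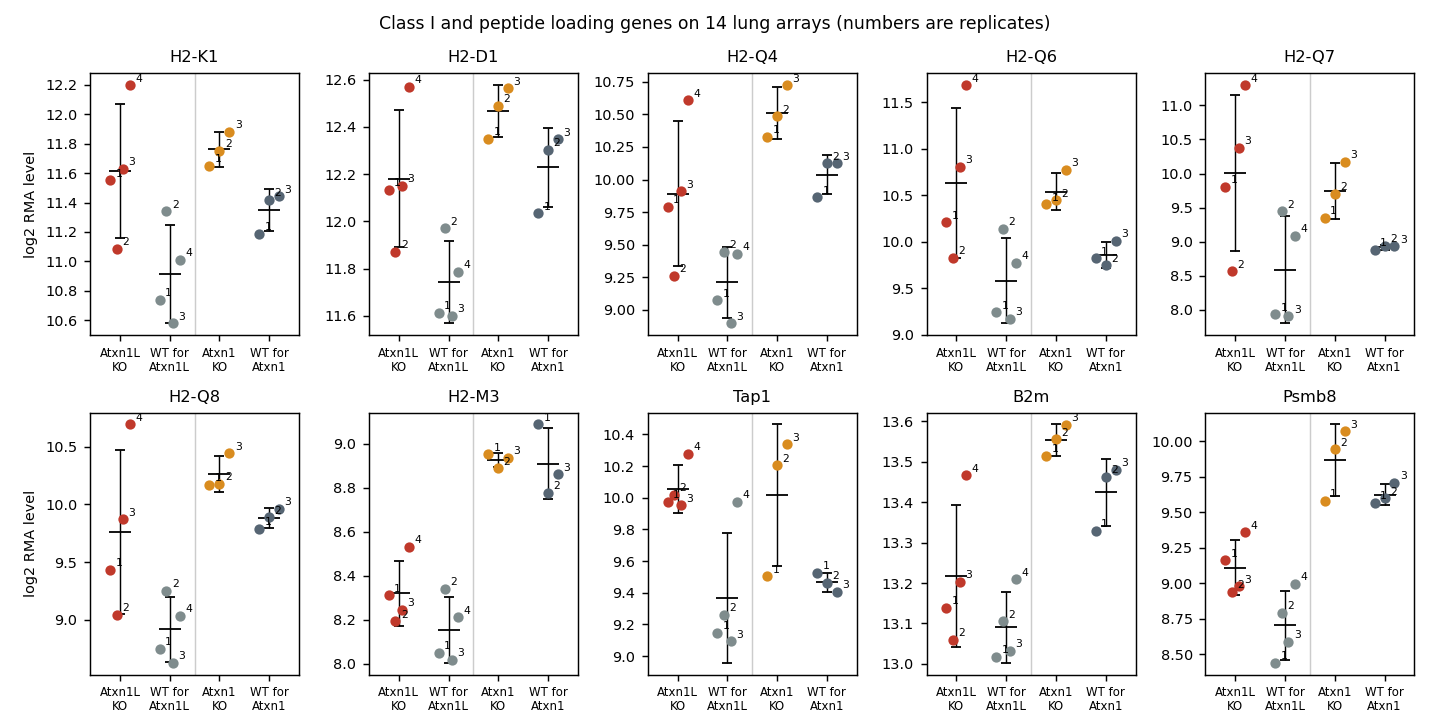
Log2 RMA levels of the 10 genes on every array, 1 panel per gene, with knockouts left of their own WT lungs; points are arrays labelled by replicate number, bars the group mean with its SD, and the axis differs between panels. The grey line parts the sets, which were normalized apart. Atxn1L knockout replicate 4 is the highest array of its set in each panel, and WT replicate 4 lies among the knockouts for Tap1.

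In the Atxn1 knockouts the heavy chains other than H2-M3 were higher on every array than in WT lungs. H2-K1 had 11.65, 11.75 and 11.88 in the Atxn1 knockouts, against 11.19, 11.42 and 11.44 in their WT lungs (difference 0.41, SE 0.09). H2-Q7 had 9.35, 9.71 and 10.17 in the Atxn1 knockouts, against 8.88, 8.94 and 8.94 in their WT lungs. The spread of H2-Q7 lay in the knockouts (SD 0.41, n = 3) and hardly in the WT lungs (SD 0.03, n = 3), and the difference was 0.82 (SE 0.19). H2-Q6 had 10.404, 10.44 and 10.77 in the Atxn1 knockouts, against 9.82, 9.75 and 10.01 in their WT lungs, a gap of 0.39 between the closest arrays and a 1.60-fold higher mean (difference 0.68, SE 0.12).

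H2-Q4 and H2-Q8 had differences of 0.47 (SE 0.12) and 0.38 (SE 0.09) in the Atxn1 knockouts, also without overlap. H2-D1 had 12.35, 12.49 and 12.56 in the Atxn1 knockouts, against 12.03, 12.30 and 12.35 in their WT lungs, where the closest arrays differed by only 0.0012. H2-M3 had 8.95, 8.89 and 8.94 in the Atxn1 knockouts, against 9.09, 8.78 and 8.86 in their WT lungs, with the knockouts inside the WT range. Its difference of 0.02 (SE 0.08) became -0.05 without WT replicate 2 and -0.01 without WT replicate 3.

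Tap1 and Psmb8 were lower in replicate 1 than in the other Atxn1 knockouts. Tap1 had 9.50, 10.21 and 10.34 in the Atxn1 knockouts, against 9.52, 9.46 and 9.41 in their WT lungs, so knockout replicate 1 lay within the WT range (difference 0.55, SE 0.20). Psmb8 had 9.58, 9.94 and 10.07 in the Atxn1 knockouts, against 9.57, 9.60 and 9.71 in their WT lungs (difference 0.24, SE 0.12). Leaving out knockout replicate 1 gave 0.38, and leaving out knockout replicate 3 gave 0.14. B2m had 13.51, 13.56 and 13.59 in the Atxn1 knockouts, against 13.33, 13.46 and 13.48 in their WT lungs, a difference of 0.13 (SE 0.06) with no overlap.

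**Figure D3:**
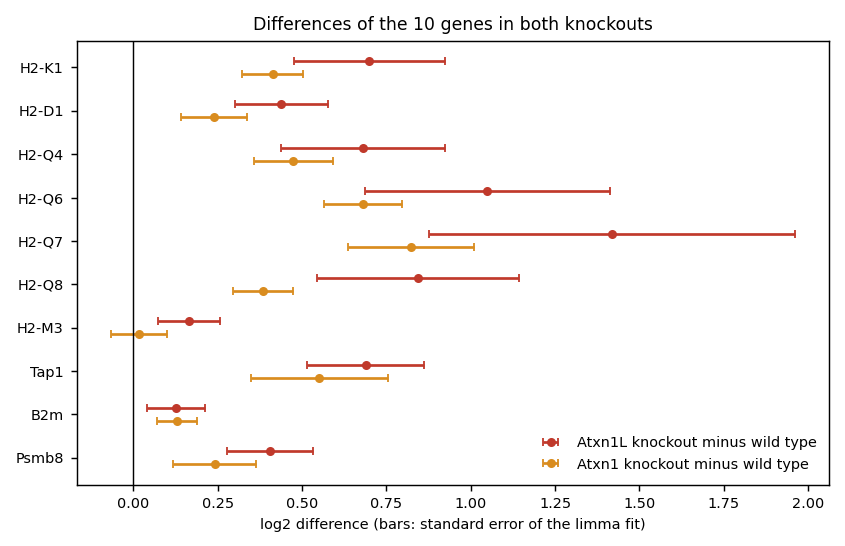
Log2 difference, knockout minus WT, of the 10 genes in the Atxn1L set (red) and the Atxn1 set (orange); bars are standard errors of the limma fit. H2-Q7 has the largest difference in both sets, 1.42 and 0.82, and H2-M3 and B2m have the smallest.

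None of the 10 passed limma's threshold of an adjusted p under 0.05 over all probe sets in the Atxn1L knockouts (smallest adjusted p = 0.333, for Tap1) or in the Atxn1 knockouts (smallest adjusted p = 0.999886). That threshold was passed by 0.0424% of probe sets in the Atxn1L knockouts (0.0236% higher) and by 0% in the Atxn1 knockouts. All 10 differences were above 0 in both comparisons, as were 51.3% of all probe sets in the Atxn1L knockouts and 47.3% in the Atxn1 knockouts. At an unadjusted p under 0.05, 8 of the 10 were higher in the Atxn1L knockouts, beside 4.54% of all probe sets, and 7 of the 10 in the Atxn1 knockouts, beside 0.75%; in either direction these shares were 8.5% and 1.22%. Every knockout array lay above every WT array for 0 of the 10 in the Atxn1L set, beside 2.76% of probe sets, and for 7 of the 10 in the Atxn1 set, beside 2.85%. The median difference of the 10 was 0.68 in the Atxn1L knockouts and 0.40 in the Atxn1 knockouts, beside 0.00 and -0.00 for all probe sets. Since the genes were chosen on these contrasts, these counts describe the choice. The sets share no array. The difference between the effects was largest for H2-Q7, at 0.60 (SE 0.72), and nearest 0 for B2m, at -0.00 (SE 0.12). In the fit of that difference over all probe sets every gene of the 10 had an adjusted p of 0.999553 by limma, and none had an unadjusted p under 0.05 (lowest 0.264, for H2-Q8), which does not show that the effects are alike.

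The size of the differences in the Atxn1L set depended on knockout replicate 4. Without it the median difference of the 10 was 0.47. H2-Q4 then had 0.44, H2-Q6 0.70, H2-Q8 0.53, H2-M3 0.09 and B2m 0.04, each smaller by more than 1.5 times, and all 10 stayed above 0. For Tap1 the difference was 0.61 without that array. In the Atxn1 set, H2-D1 had 0.14 and B2m 0.08 without WT replicate 1.

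Apart from genotype, the genes differed in how closely they varied together between arrays of a group. For each array the deviation from its own group's mean was taken, and Pearson's r was computed over the 14 arrays, as a description. The points share normalization within a set, and the heavy chains may share probes or signal. H2-K1, H2-D1, H2-Q4, H2-Q6, H2-Q7 and H2-Q8 varied together, with r of 0.897 to 0.984 in their 15 pairs. B2m, on another chromosome and unlike them in sequence, followed these 6 chains with r of 0.836 to 0.934. H2-M3 followed them less closely, with 0.530 to 0.734.

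Tap1 and Psmb8 had r of 0.845 with each other. Psmb8 had r of 0.606 to 0.738 with the 6 chains and 0.741 with B2m, and Tap1 had 0.361 to 0.497 with the chains. By Spearman's rank correlation Psmb8 had 0.727 with Tap1 and 0.727 to 0.851 with the 6 chains, so by rank it was no closer to Tap1 than to them. By Pearson's r it was closer to Tap1. Without the 2 arrays named next, Psmb8 had r of 0.473 to 0.744 with the 6 chains. Leaving out the 2 arrays farthest from the median, Atxn1L knockout replicates 2 and 4, the 6 chains kept r of 0.747 to 0.976 among themselves, B2m had 0.625 to 0.826 with them, H2-M3 0.183 to 0.571, and Tap1 with Psmb8 0.868. On the 6 arrays of the Atxn1 set alone the median r was 0.832 among the 6 chains and 0.805 for B2m with them, but -0.45 for H2-M3 with them. On the 8 arrays of the Atxn1L set alone these medians were 0.965, 0.897 and 0.883. There H2-M3 followed the chains about as closely as B2m did.

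**Figure D4:**
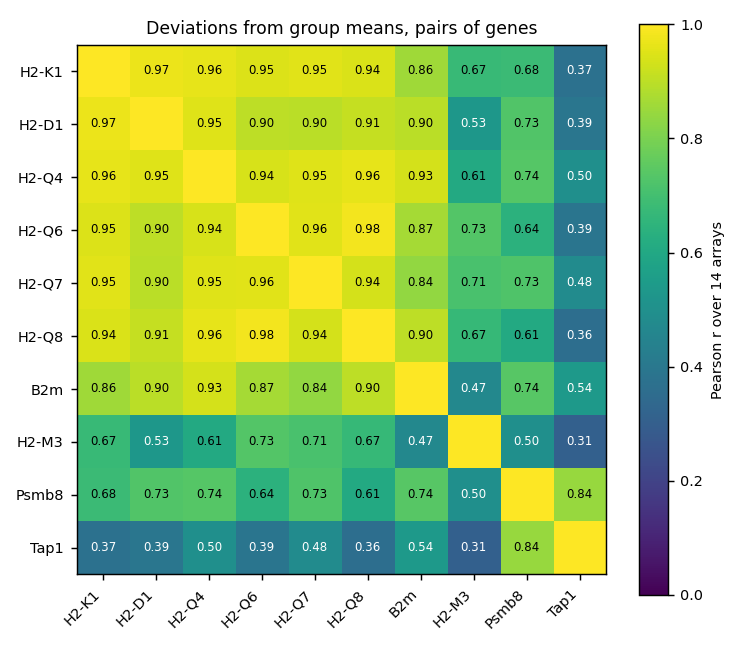
Pearson r between pairs of the 10 genes over 14 arrays, from deviations of each array from its group mean; colour runs from 0 to 1. The block of 6 heavy chains with B2m is at the upper left, and Tap1 with Psmb8 at the lower right.

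In the Atxn1L knockouts the order of the arrays differed in part from that of neutrophil, macrophage and interferon-stimulated genes, and matched that of T and NK cell markers. In all 6 chains the Atxn1L knockouts ran in the order of replicates 4, 3, 1 and 2, and B2m ran in the same order. The mean of 22 measured interferon-stimulated genes was highest in replicate 1 (8.85), then 4 (8.82), 2 (8.51) and 3 (8.48), against 8.08, 8.12, 8.18 and 8.56 in the 4 WT lungs, where replicate 4, the WT lung highest in Tap1, was also highest. The mean of 12 neutrophil markers was highest in knockout replicate 1 (10.36) and lowest in replicate 4 (8.68), the knockout highest in the heavy chains, against 8.08 to 8.82 in the WT lungs. In those WT lungs replicate 2 was highest both in the 6 chains and in the neutrophil and macrophage means. The macrophage mean ran in the order of replicates 1, 4, 3 and 2 in the knockouts, so that replicate 2 was lowest there as in the chains. The T and NK mean was 7.31, 7.30, 7.47 and 7.55 in knockout replicates 1 to 4, the order of the chains, but was highest in WT replicate 3. The class II and dendritic means were highest in replicates 4 and 3 of the knockouts and in replicates 2 and 4 of the WT lungs. In both groups they were lowest in replicate 1. The B cell mean was highest in knockout replicate 3 and WT replicate 2. Among the 3 Atxn1 knockouts, Tap1, Psmb8, B2m and the 6 chains were all highest in replicate 3 and lowest in replicate 1. The means of the interferon-stimulated and of the neutrophil genes ran in that order too. In their WT lungs H2-K1, H2-D1, H2-Q4, H2-Q8, B2m and Psmb8 again ran in the order of replicates 3, 2 and 1. The macrophage mean ran in this order in both groups. H2-Q6, H2-Q7 and Tap1 departed from it in the WT lungs. There Tap1 and the interferon-stimulated mean were highest in replicate 1, and the neutrophil mean in replicate 3. The neutrophil mean of that WT replicate 3 (10.89) lay above all 3 knockouts.

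Among 9167 named probe sets outside the lists and above the median level in both sets, the 6 most like the mean of the 10 genes, by r of the same deviations, were Snapc4 (0.836), Smpdl3b (0.761), H3c8 (0.744), Parp11 (0.741), Sp100 (0.738) and Zfp953 (0.735). Without the 2 farthest arrays these values were 0.376 to 0.648. Snapc4 had r of 0.955 on the Atxn1L set and -0.351 on the Atxn1 set, and Parp11 had 0.927 and -0.28, so their likeness was absent from the Atxn1 set. On the Atxn1 set the other 4 had 0.863 (Smpdl3b), 0.644 (H3c8), 0.418 (Sp100) and 0.252 (Zfp953). Within the lists below, the highest were H2-T22 (0.860), H2-T23 (0.839), H2-Bl (0.808) and the T and NK cell marker Gzma (0.777). Without the 2 farthest arrays these had 0.713, 0.684, 0.481 and 0.448. The median r was 0.502 for class II genes and 0.452 for interferon-stimulated genes, and the median over all probe sets was -0.10.

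The rest of the pathway was examined with lists of genes. Of all probe sets, 51.3% lay above 0 in the Atxn1L knockouts and 47.3% in the Atxn1 knockouts. At an unadjusted p under 0.05, 4.54% and 0.75% were higher, and 8.5% and 1.22% differed in either direction. These shares stand beside the counts of every list below. Other class I and class I-like chains had medians near 0: of 27 listed, 23 were measured, 16 lay above 0 in the Atxn1L knockouts with a median of 0.05, and 11 in the Atxn1 knockouts with a median of -0.00. None passed over all probe sets in either comparison, beside 0.0424% and 0%; at an unadjusted p under 0.05, 5 were higher in the Atxn1L knockouts and 2 in the Atxn1 knockouts. H2-T23, which encodes Qa-1, averaged 10.68 in the Atxn1L knockouts and 10.35 in their WT lungs (difference 0.34, SE 0.11), and 10.99 in the Atxn1 knockouts and 10.74 in theirs (difference 0.24, SE 0.09), without passing in either. H2-Q1 had differences of 0.22 (SE 0.06) in the Atxn1L knockouts and 0.01 (SE 0.10) in the Atxn1 knockouts, and H2-T10 had 0.09 (SE 0.06) and 0.12 (SE 0.05). H2-T22, the listed chain with the highest r above, had 0.35 and 0.23, and H2-T24 had 0.35 and 0.08. The mean level of the list was 7.61 to 7.67 in the Atxn1L knockouts, against 7.52 to 7.59 in their WT lungs. All 4 knockouts thus lay above every WT lung, and all these levels were below the array medians of that set. In the Atxn1 knockouts the mean was 8.33 to 8.42, against 8.27 to 8.46 in their WT lungs.

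Of the other processing and loading genes, 14 of 15 were measured and none passed, while 4 were higher at an unadjusted p under 0.05 in the Atxn1L knockouts and 1 in the Atxn1 knockouts. Their median difference was 0.09 in the Atxn1L knockouts and 0.07 in the Atxn1 knockouts. Psmb9, an immunoproteasome subunit that shares its promoter region with Tap1, had differences of 0.34 (SE 0.13) and 0.28 (SE 0.13). Tap2, the partner of Tap1, had 0.17 (SE 0.05) in the Atxn1L knockouts, where all 4 lay above all 4 WT lungs, and 0.07 (SE 0.07) in the Atxn1 knockouts. Tapbp, which encodes tapasin, the bridge between the transporter and the heavy chain, had 0.21 (SE 0.08) and 0.08 (SE 0.07), and Psme2, a subunit of a proteasome activator, 0.12 (SE 0.11) and 0.13 (SE 0.05).

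Constitutive proteasome subunits stayed near 0. Of 15 listed, 14 were measured, with medians of 0.02 in the Atxn1L knockouts and -0.00 in the Atxn1 knockouts, and none was under an unadjusted p of 0.05 in either. Psmb6, a catalytic subunit that Psmb9 can replace, had 0.11 (SE 0.06) in the Atxn1L knockouts and 0.02 (SE 0.06) in the Atxn1 knockouts, and Psma3 had -0.21 (SE 0.09) and -0.04 (SE 0.11), neither passing.

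Among 20 measured regulators of class I genes none passed over all probe sets. Irf7, a factor of the interferon response that interferon itself induces, averaged 9.21 in the Atxn1L knockouts and 8.39 in their WT lungs, a difference of 0.82 (SE 0.22, adjusted p = 0.366 by limma), and had 0.20 (SE 0.12) in the Atxn1 knockouts. Irf8, a factor of myeloid cells, had 0.28 (SE 0.05, adjusted p = 0.192 by limma) in the Atxn1L knockouts and 0.09 (SE 0.05) in the Atxn1 knockouts. Irf1, an activator of class I and Tap1 transcription, had 0.28 (SE 0.16) and 0.33 (SE 0.17). The median of the list was 0.00 in the Atxn1L knockouts and 0.01 in the Atxn1 knockouts, with 4 higher and 2 lower at an unadjusted p under 0.05 in the Atxn1L knockouts and none in the Atxn1 knockouts.

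MHC class II genes, which serve presentation to helper T cells, had medians of 0.09 in the Atxn1L knockouts and 0.05 in the Atxn1 knockouts. None of the 12 passed, and 2 were higher at an unadjusted p under 0.05 in the Atxn1L knockouts, Ciita (0.20, SE 0.08), the activator of class II genes, and H2-Ab1 (0.26, SE 0.11). Ctss, a protease of the class II pathway, had 0.35 (SE 0.17) in the Atxn1L knockouts and 0.15 (SE 0.13) in the Atxn1 knockouts.

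Interferon-stimulated genes outside antigen presentation had a median difference of 0.37 in the Atxn1L knockouts, where 22 of 22 measured lay above 0, and of 0.15 in the Atxn1 knockouts, where 19 of 22 did. None passed, and 15 and 3 were higher at an unadjusted p under 0.05, beside 4.54% and 0.75% of all probe sets. Usp18, a brake on interferon signalling, had 0.37 (SE 0.12) in the Atxn1L knockouts and 0.32 (SE 0.09) in the Atxn1 knockouts. Ifit3 had 0.59 (SE 0.18) and 0.38 (SE 0.15). Oas2, an enzyme of antiviral RNA decay, had 0.71 (SE 0.16) in the Atxn1L knockouts and -0.08 (SE 0.15) in the Atxn1 knockouts, and Oas1a had 0.28 (SE 0.06) and 0.04 (SE 0.12). In the test of the difference between the knockout effects, 0.00943% of probe sets passed and none of the listed genes did.

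Genes that lie in the MHC region but serve other functions were used as neighbours on the chromosome. Of 46 listed, 44 were measured, with medians of 0.03 in the Atxn1L knockouts and 0.01 in the Atxn1 knockouts and none passing. The examples of smallest p in the Atxn1L knockouts were Vars, a tRNA synthetase (0.22, SE 0.04), and Aif1, a macrophage gene (0.57, SE 0.15), which had 0.05 (SE 0.06) and -0.04 (SE 0.09) in the Atxn1 knockouts. In the Atxn1 knockouts they were Hspa1l (-0.11, SE 0.05) and Pbx2 (0.12, SE 0.06), which had -0.06 (SE 0.06) and -0.02 (SE 0.04) in the Atxn1L knockouts.

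**Figure D5:**
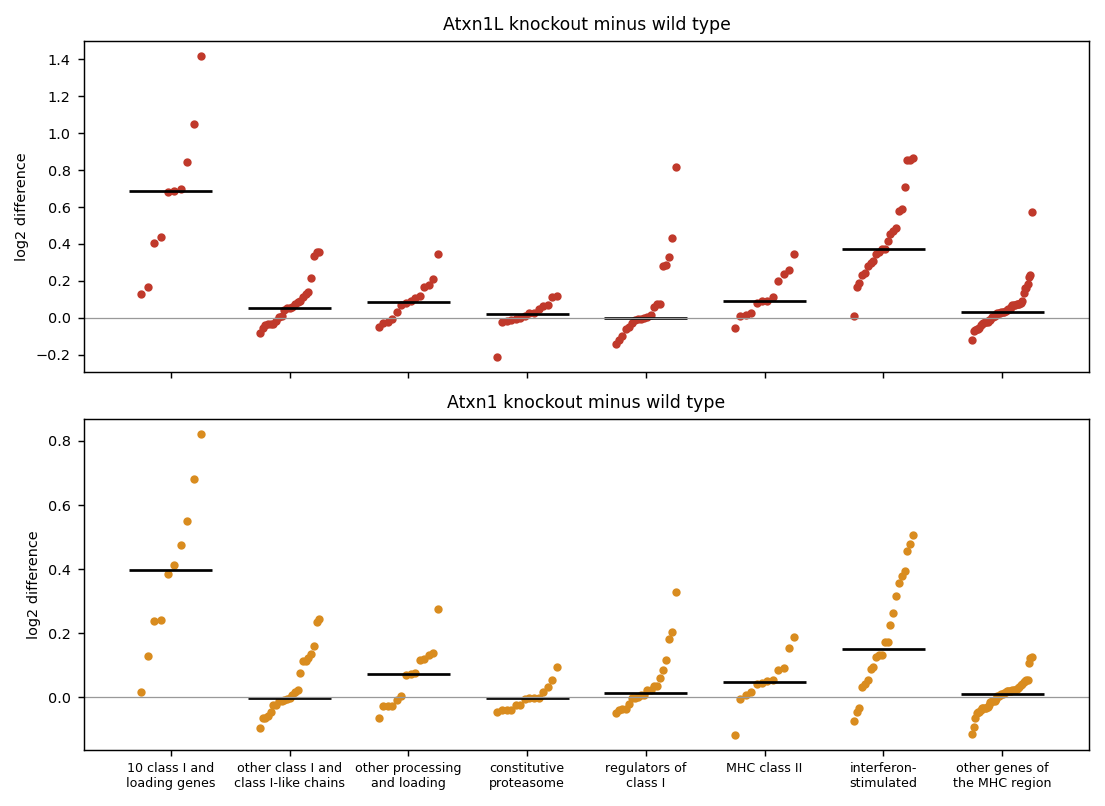
Log2 differences, knockout minus WT, of every measured gene in the 10 and in 7 lists of related or neighbouring genes, for the Atxn1L set (top) and the Atxn1 set (bottom), whose axes differ; each point is a gene and each black line the median of its list. The interferon-stimulated list has the highest median after the 10, at 0.37 in the Atxn1L set and 0.15 in the Atxn1 set, and the proteasome list stays near 0.

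Markers of cell types rich in class I molecules were measured on the same arrays, and in bulk RNA a change in the number of such cells and a change in RNA per cell cannot be told apart. Endothelial markers had medians of -0.01 in the Atxn1L knockouts and 0.03 in the Atxn1 knockouts over 11 genes, and their mean level ranged from 11.86 to 11.98 in the Atxn1L knockouts, against 11.87 to 12.06 in their WT lungs. Emcn had -0.19 (SE 0.06) and Vwf 0.23 (SE 0.11) in the Atxn1L knockouts, with neither passing. Alveolar type 2 markers had medians of -0.03 and 0.02 over 9 genes.

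Macrophage markers were higher in the Atxn1L knockouts, with their mean level above that of every WT lung in all 4. Of 11 measured, 10 lay above 0 with a median of 0.48, and 1 rose over all probe sets, the scavenger receptor Msr1 (0.69, SE 0.08, adjusted p = 0.0197 by limma), which had -0.14 (SE 0.27) in the Atxn1 knockouts. Msr1 passed in 3 of the 8 fits that left out 1 array of the Atxn1L set, those without knockout replicate 1 or 2 or WT replicate 4, with differences of 0.63 to 0.73 and adjusted p of 0.0115 to 0.093, and its adjusted p was 0.088 with the replicate number as a block. The mean macrophage level was 9.61 to 10.14 in the Atxn1L knockouts, against 9.32 to 9.45 in their WT lungs, and 10.005 to 10.2025 in the Atxn1 knockouts, against 9.96 to 10.28 in theirs. Neutrophil markers lay above 0 in 12 of 12 in the Atxn1L knockouts (median 0.86), beside 51.3% of all probe sets. They did so in 0 of 12 in the Atxn1 knockouts (median -0.37), beside 47.3%, and none passed in either. Ngp, a protein of neutrophil granules, had 1.41 (SE 0.34) and -0.18 (SE 0.56). Their mean was 8.68 to 10.36 in the Atxn1L knockouts, against 8.08 to 8.82 in their WT lungs, and 9.10, 9.17 and 9.39 in the Atxn1 knockouts, against 8.98, 8.87 and 10.89 in theirs. WT replicate 3 set the direction in the Atxn1 set: without it the difference of the means was 0.29 in place of -0.36, 9 of 12 markers lay above 0 with a median of 0.32, and all 3 knockouts lay above both remaining WT lungs. In the Atxn1L set the difference of the means was 0.82, and 0.45 without knockout replicate 1. The part of these cells in the class I values was not tested in either set.

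T and NK cell markers had medians of 0.04 in the Atxn1L knockouts and 0.02 in the Atxn1 knockouts, and none of 12 passed. In the Atxn1L knockouts 8 lay above 0 and 4 below. At an unadjusted p under 0.05 by limma, 4 were higher in the Atxn1L knockouts, beside 4.54% of all probe sets, and 2 in the Atxn1 knockouts, beside 0.75%. Their mean level was 7.30 to 7.55 in the Atxn1L knockouts, against 7.16 to 7.37 in their WT lungs, and 7.98 to 8.06 in the Atxn1 knockouts, against 7.89 to 8.04 in theirs. Nkg7, a gene of cytotoxic granules, had 0.26 (SE 0.09) in the Atxn1L knockouts and 0.13 (SE 0.06) in the Atxn1 knockouts, and Cd3g, of the T cell receptor complex, 0.06 (SE 0.17) and 0.30 (SE 0.12). Gzma, chosen after its values were seen, had the largest difference of the list in the Atxn1L knockouts, 0.71, and 0.00 in the Atxn1 knockouts. The markers below 0 in the Atxn1L knockouts were Cd3e, Cd3d, Cd8a and Cd2. B cell markers (6 measured) had medians of 0.09 and 0.03, with a mean level of 8.40 to 8.75 in the Atxn1L knockouts against 8.30 to 8.56 in their WT lungs. Dendritic cell markers (8 measured) had medians of 0.06 and 0.01, and 6 of the 8 lay above 0 in the Atxn1L knockouts. Against that direction Cd209a, a lectin of dendritic cells, fell by 0.58 in the Atxn1L knockouts (SE 0.07, adjusted p = 0.0253 by limma). It passed in 4 of the 8 fits that left out 1 array, those without knockout replicate 1 or 2 or WT replicate 1 or 4, with an adjusted p of 0.0266 to 0.12, and had 0.0925 with the block. Xcr1, a chemokine receptor of cross-presenting dendritic cells chosen after its values were seen, had 0.47 (SE 0.09, adjusted p = 0.232 by limma). The part of lymphocytes and dendritic cells in the class I values was not tested.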

How the data were processed

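The deposited table held log2 levels from Affymetrix mouse Gene ST 1.0 arrays, made by the authors with RMA, per the submitters' processing notes, over the 8 arrays of the Atxn1L set and separately over the 6 of the Atxn1 set, per the series' design text. Which probe set definition they used is not stated in those sources. Of 21212 probe sets, 18786 had 1 gene symbol in the platform's table, 6 several and 2420 none; 236 of 253 list memberships were measured. Each knockout was compared with its own WT lungs with limma 3.58.1 in R 4.3.3 (lmFit, eBayes, no covariate, two-sided, Benjamini-Hochberg over all probe sets, threshold 0.05), a step tested on simulated data. SE is that of the fit, and SD the spread between arrays. Precision is limited by how few arrays there were. The p-values set each difference against the spread between these samples, with neither litter nor sex in the main fit. The genes and lists were chosen with earlier results of these data known. The naming rule took all 10 genes, in each list the genes that passed (at most 4) or else the 2 of smallest p in each comparison, and the 6 probe sets most like the 10; not every gene it took is printed. Promoter windows were searched in Python 3.11.15 and aligned with Biopython 1.88. Alternatives were a replicate block, median centring, joint quantile normalization, a trended robust prior, weighted arrays, dim probe sets left out, the Xist level, a threshold of 0.1 and leaving out each array. The pairs of WT and knockout mice are not tied to replicate numbers in the labels, and the numbers were not taken to pair the samples.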

Additional observations from a re-analysis of the deposited data

Results flagged for a closer look

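The mean of the 12 neutrophil markers lay above the WT mean in all 4 Atxn1L knockouts and below it in all 3 Atxn1 knockouts, and the effects differed by 1.18 on the log2 scale. This difference was not tested, and its direction in the Atxn1 set rests on WT replicate 3: without that array the Atxn1 difference of the means was 0.29 in place of -0.36, all 3 Atxn1 knockouts lay above both remaining WT lungs, and the effects differed by 0.529. Without Atxn1L knockout replicate 1 they differed by 0.808. In the Atxn1L set no array was flagged in the 10 genes or list means, in 56 checks on groups of 4. Each check took the gap between the most distant array and its neighbour over the group's range, where chance flags about 1 in 20. The Atxn1 groups, of 3 arrays each, were not checked in this way.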

How the results depend on the processing

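With the replicate number as a block, 2 probe sets passed in the Atxn1L knockouts, against 9 without it, and 0 listed genes; the samples share only that number (r of deviations between arrays of equal number 0.0371 to 0.376 for Atxn1L and -0.417 to 0.421 for Atxn1). The block called none of the 10 genes (smallest adjusted p = 0.177, for Tap1). Array weights gave 1 probe set in the Atxn1 knockouts, and none of the 10 genes. Leaving out 1 array gave 2 to 25 probe sets in the Atxn1L knockouts, 0 to 1 of the 10 genes (Tap1, without WT replicate 4), 0 to 5 listed genes (2 with all arrays, Msr1 and Cd209a), and 1 to 2 probe sets for the difference of the effects; the median of the 10 was 0.47 to 0.79 in the Atxn1L knockouts and 0.32 to 0.45 in the Atxn1 knockouts. H2-M3 in the Atxn1 knockouts ranged from -0.05 to 0.11, at -0.049 without WT replicate 2 and -0.0068 without WT replicate 3; the cause was not tested. The mean of the neutrophil markers in the Atxn1 knockouts, in leaving out each array, also chosen after seeing the data, ranged from -0.71 to 0.29, the highest without WT replicate 3. The median of Tap1, B2m and Psmb8 alone, an alternative chosen after seeing the data, was 0.41 in the Atxn1L knockouts and 0.24 in the Atxn1 knockouts. Of 280 values of the 10 genes under the alternatives, 278 were above 0 and 1 had an adjusted p under 0.05.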
